A study of Homo sapiens with 6 samples.

Results

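Chromatin accessibility was examined around 9 genes of extracellular matrix breakdown and plasminogen activation: the matrix metalloproteinases MMP1, MMP3, MMP9, MMP10, MMP13 and MMP14, the urokinase gene PLAU, its receptor gene PLAUR, and the protease inhibitor gene SERPINE2. The 9 genes were taken by name from 20136 protein-coding genes. A called ATAC-seq peak belonged to a gene when it shared at least 1 bp with the gene body extended by 50 kb to each side. This rule took 27 of the 23972 regions obtained by merging the peaks of all 6 libraries. A peak within 3 kb of any annotated start site of a member was counted in its promoter, a peak within 3 kb of a start site of another gene was counted apart, and the rest were distal.

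Matrix metalloproteinases are zinc-dependent enzymes that cut collagens and other matrix proteins, most of them secreted as inactive precursors. PLAU encodes urokinase, which converts plasminogen to plasmin at the cell surface where PLAUR, a glycolipid-anchored receptor, holds it; plasmin in turn degrades matrix and activates several metalloproteinases. Several of these genes are textbook targets of AP-1, a dimer of FOS and JUN family proteins that binds the core sequence TGACTCA, read on the other strand as TGAGTCA. In squamous carcinomas this protease system is known for its part in invasion.

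The libraries came from 3 established oesophageal cell lines, with 2 libraries per line, named here by the library numbers in the labels. HET-1A is a non-cancerous oesophageal epithelial line (libraries 1 and 2), and KYSE-30 (libraries 4 and 6) and KYSE-150 (libraries 7 and 8) are lines of oesophageal squamous cell carcinoma (ESCC). The labels give no treatment. HET-1A was grown in BEBM with its additives and both KYSE lines in RPMI/F12 with serum, so the non-cancerous condition is represented by HET-1A alone, and its difference from the KYSE lines cannot be told apart from the medium. The design text calls the libraries of a line biological replicates. ATAC-seq uses the Tn5 transposase to cut open chromatin, and the data are the authors' peak lists, called in each library alone. Fold enrichment is the authors' ratio of the tags at the peak summit to the local background of the same library, with 1 added to each.

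The lists were of very unequal length. HET-1A library 2 held 15979 peaks and KYSE-30 library 6 held 11671, while the other 4 libraries held 168 to 1255. The genome background, which stands in for depth since the lists carry no read totals, was 1.49 to 3.34 tags per 200 bp, lowest in KYSE-30 library 6 and highest in HET-1A library 2. At genome background the smallest called peak had 8 tags in KYSE-30 library 6 and 10 to 13 in the others, so weaker openings were not detectable. The median fold over all peaks was 4.22 in HET-1A library 2 and 5.47 in KYSE-30 library 6. Folds of these 2 libraries are therefore not on a common scale. No test between lines was run, as the smallest two-sided p-value of an exact permutation of 2 against 2 libraries is 0.33, and the values below describe libraries. Of 11 epithelial markers, promoter peaks lay at 6 in HET-1A library 2 (KRT6A, KRT8, KRT18, DSP, EPCAM and SFN), at 2 in KYSE-30 library 6 (KRT8 and EPCAM) and at none in the other 4 libraries. The strongest promoter peaks of KRT8 and KRT18 in HET-1A library 2 had the same fold (5.33) and may be 1 peak. Fibroblast markers had 1 of 6 in each of these 2 libraries (THY1 in HET-1A, COL3A1 in KYSE-30), leukocyte markers 1 of 4 in HET-1A library 2 (CD68) and none in KYSE-30 library 6, and the 2 endothelial markers that could be looked up, of 3 listed, had none. Over all protein-coding genes the shares were 35.4% in HET-1A library 2 and 28.7% in KYSE-30 library 6, so these few markers do not settle cell identity. The epithelial markers KRT5, KRT14, TP63, CDH1 and ITGB4 had no promoter peak in any library. Counted over the gene body and 50 kb to each side, all 11 epithelial markers had a peak in HET-1A library 2 (68.6% of all genes). In KYSE-30 library 6 it was 6 of 11 (60.8% of all genes). Fibroblast markers had such a peak at 3 of 6 in each of these 2 libraries. Leukocyte markers had one at 2 of 4 in HET-1A library 2 and 3 of 4 in KYSE-30 library 6. For endothelial markers it was 2 of 2 and 1 of 2. TP63 and the endothelial marker VWF each had 6 peaks in KYSE-30 library 6, so these counts do not settle cell identity either.

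A selection of the peak summits is shown first, as 200 bp of hg19 around the summit on the plus strand. Distances are from the start of the canonical transcript, counted in the direction of transcription. Capitals mark the AP-1 core. The first 3 are elements of the PLAU locus, the fourth is, with PLAU −11.6 kb, the only region called in KYSE-30 and not in HET-1A, the fifth was called in both lines, and the last pair were called in HET-1A only. The PLAU element at −4.3 kb holds no AP-1 core and is shown for contrast. All other windows shown hold the core, so the selection does not represent the member peaks. Of those, 10 of 25 in HET-1A library 2 and 4 of 9 in KYSE-30 library 6 held it.
PLAU −11.6 kb, KYSE-30 library 6, chr10:75659144-75659343: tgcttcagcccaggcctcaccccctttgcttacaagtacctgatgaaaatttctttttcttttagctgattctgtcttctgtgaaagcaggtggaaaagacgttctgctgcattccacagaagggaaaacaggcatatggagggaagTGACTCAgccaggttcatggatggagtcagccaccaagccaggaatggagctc
PLAU −4.3 kb, KYSE-30 library 6, chr10:75666487-75666686: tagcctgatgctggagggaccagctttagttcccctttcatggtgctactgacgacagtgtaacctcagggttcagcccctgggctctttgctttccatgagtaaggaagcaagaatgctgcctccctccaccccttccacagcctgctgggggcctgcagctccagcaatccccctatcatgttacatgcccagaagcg
PLAU 21.4 kb, HET-1A library 2, chr10:75692145-75692344: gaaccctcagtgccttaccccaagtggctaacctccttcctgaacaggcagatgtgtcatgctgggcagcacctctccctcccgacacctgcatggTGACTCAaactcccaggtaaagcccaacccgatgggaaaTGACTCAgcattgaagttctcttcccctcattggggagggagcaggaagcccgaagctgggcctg
SERPINE2 −47.5 kb, KYSE-30 library 6, chr2:224951367-224951566: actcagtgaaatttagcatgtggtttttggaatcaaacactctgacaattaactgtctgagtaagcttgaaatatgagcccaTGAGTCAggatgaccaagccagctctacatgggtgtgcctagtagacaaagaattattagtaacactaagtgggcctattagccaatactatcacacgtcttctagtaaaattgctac
MMP9 −15.3 kb, KYSE-30 library 6, chr20:44622162-44622361: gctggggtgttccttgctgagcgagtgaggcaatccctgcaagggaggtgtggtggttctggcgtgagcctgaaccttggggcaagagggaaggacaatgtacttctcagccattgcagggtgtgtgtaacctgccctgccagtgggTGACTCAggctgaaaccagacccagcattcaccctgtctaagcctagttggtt
PLAUR −5.4 kb, HET-1A library 2, chr19:44179635-44179834: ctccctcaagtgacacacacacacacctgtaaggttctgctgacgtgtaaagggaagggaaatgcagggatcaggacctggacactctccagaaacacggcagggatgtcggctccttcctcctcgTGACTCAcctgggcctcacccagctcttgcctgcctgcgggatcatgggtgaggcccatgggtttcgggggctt
MMP3 −5.9 kb, HET-1A library 2, chr11:102720169-102720368: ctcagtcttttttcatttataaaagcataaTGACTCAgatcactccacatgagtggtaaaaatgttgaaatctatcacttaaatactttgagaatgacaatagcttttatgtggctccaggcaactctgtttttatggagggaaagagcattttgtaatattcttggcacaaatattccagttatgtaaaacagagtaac

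Peaks near the members were found almost entirely in the longest list of each of 2 lines. HET-1A library 2 covered 25 of the 27 regions, KYSE-30 library 6 covered 9 and KYSE-150 library 7 covered 2. The remaining library of each line covered 0. No region had a peak in both libraries of a line. At least 1 peak lay in the windows of 8 of 9 members in HET-1A library 2, where 68.6% of all protein-coding genes had such a peak, and of 6 members in KYSE-30 library 6 (60.8% of all genes). KYSE-150 library 7 had peaks in the PLAUR window only (5.77% of all genes). In the libraries without any member peak the shares over all genes were 0.978% for HET-1A library 1, 12.4% for KYSE-30 library 4 and 2% for KYSE-150 library 8. The peak nearest to a member start site was 1074 kb from MMP10 for HET-1A library 1, 84.9 kb from PLAUR for KYSE-30 library 4 and 196 kb from MMP9 for KYSE-150 library 8.

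Promoter peaks were called at 5 of 9 members in HET-1A library 2 and at 2 of 9 in KYSE-30 library 6, beside 35.4% and 28.7% of all protein-coding genes. The 5 were MMP1, MMP10, MMP14, PLAU and PLAUR, and the 2 were PLAU and PLAUR, so that no member had a promoter peak in KYSE-30 alone. Of all 20136 protein-coding genes, only 1946 had one in KYSE-30 library 6 and no other library. A lack among 9 genes therefore cannot be read as a trait of the members. In the other libraries no member had one, where the shares of all genes were 0.0944% for HET-1A library 1, 3.88% for KYSE-30 library 4, and 1.79% and 0.363% for KYSE-150 libraries 7 and 8. MMP3, MMP9, MMP13 and SERPINE2 had no promoter peak in any library. The grid of peak numbers by gene and library shows the 3 classes of region apart.

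**Figure D1:**
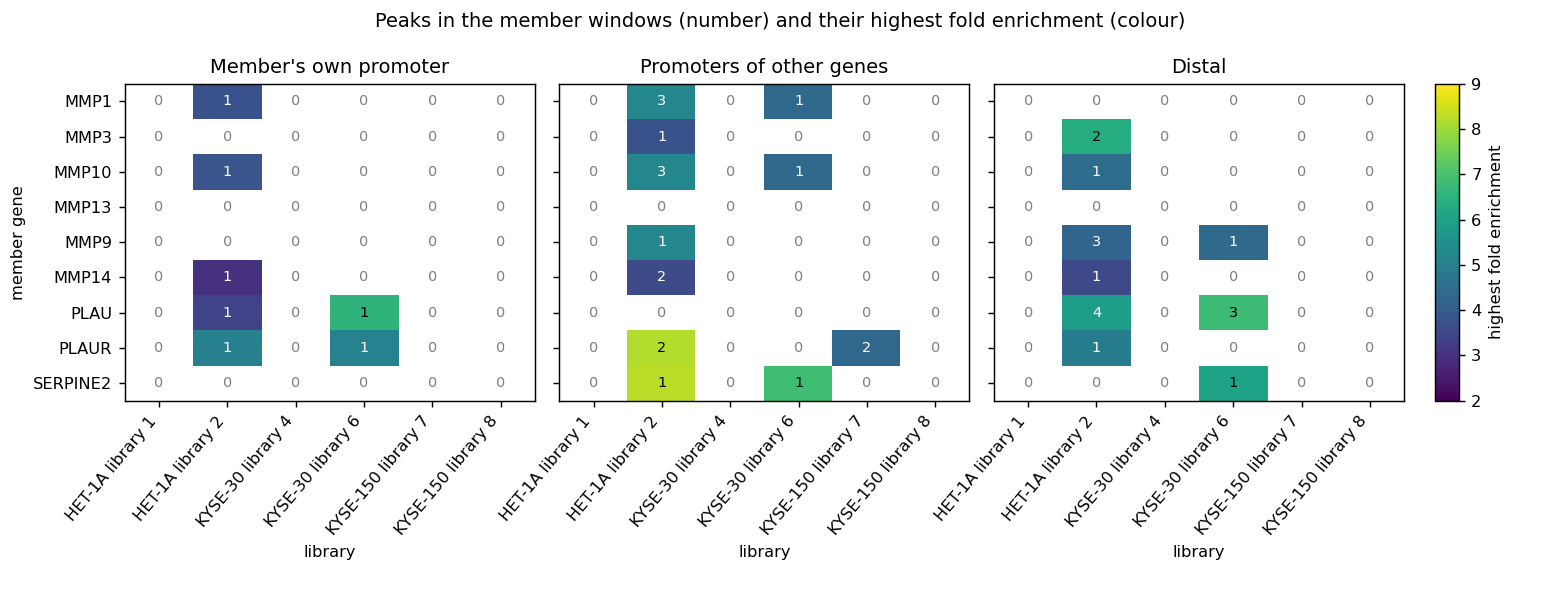
Number of called peaks (digit) and highest fold enrichment (colour, no unit) for each member gene (rows) and library (columns), in the member's own promoter, in promoters of other genes within its window, and at distal sites. Filled cells lie almost only in HET-1A library 2 and KYSE-30 library 6; MMP13 has 0 in every cell, and the only KYSE-150 peaks are the 2 in promoters of other genes in the PLAUR window.

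The urokinase gene PLAU (chromosome 10, 75668935 to 75677254, plus strand) had the fullest set of peaks in KYSE-30. Its window held 4 peaks in KYSE-30 library 6, a number reached by 5.8% of protein-coding genes, and 5 in HET-1A library 2, reached by 10.6%. The other 4 libraries had none. In all there were 6 regions, of which 3 had a peak in both libraries, 1 in KYSE-30 library 6 only and 2 in HET-1A library 2 only.
The peak counted in the PLAU promoter lay at −4.3 kb from the canonical start, with its edge 2210 bp from the most upstream annotated start. Its fold enrichment was 6.56 in KYSE-30 library 6 (q = 2.80e-10) and 3.40 in HET-1A library 2 (q = 0.00018), and no peak was called in the other 4. Both peaks rested on 20 tags (95% interval 12.2 to 30.9), but over a local background of 2.20 tags in KYSE-30 and 5.18 in HET-1A. The summits were 20 bp apart. This intergenic element is the one without an AP-1 core shown above.
At −11.6 kb, in intergenic DNA, a peak was called in KYSE-30 library 6 with a fold enrichment of 6.80 and 19 tags (11.4 to 29.7; q = 2.78e-10), the highest fold of any member peak counted as distal in that library. No other library had a peak there. Its AP-1 core is the single run of capitals in the first sequence. At +21.4 kb, beyond the 3′ end, an element with 2 AP-1 cores was called in both libraries, with 34 tags and a fold of 5.93 in HET-1A library 2 and 14 tags and a fold of 5.10 in KYSE-30 library 6. Here the fold was higher in HET-1A, the reverse of the order at −4.3 kb. The element at −22.1 kb had folds of 3.73 in HET-1A library 2 and 4.46 in KYSE-30 library 6, and its summits were 237 bp apart, wider than at the other PLAU elements. Of all peaks of these libraries, 67.7% and 80.6% had a higher fold, so by rank the order was the reverse. The sites at −31.3 kb (4.71) and +55.1 kb (5.54) were called in HET-1A library 2 only, and neither held an AP-1 core.

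PLAUR (chromosome 19, 44150247 to 44174699, minus strand), which tethers urokinase to the membrane, had a peak in its first kilobases in both lines. The region lay in a PLAUR intron, with its KYSE-30 summit at +1.2 kb and its edge 34 bp from the nearest annotated PLAUR start. The folds were 5.04 with 23 tags in HET-1A library 2 (q = 1.19e-08) and 5.11 with 17 tags in KYSE-30 library 6 (q = 8.18e-07). A higher fold was held by 25.4% and 60.9% of all peaks of these libraries. No peak was called there in the other 4 libraries. The summits were 459 bp apart within a region that was 667 bp wide in HET-1A, so that the folds belong to neighbouring points and not to the same one. Upstream, at −5.4 kb, HET-1A library 2 alone had an intergenic peak with a fold of 4.96, 23 tags and an AP-1 core.
The PLAUR window also contained the only member regions called in KYSE-150. They lay at the promoters of neighbouring genes: at IRGQ the fold was 8.19 in HET-1A library 2 and 4.35 in KYSE-150 library 7, and at ZNF428 it was 4.50 and 4.05. The summits of the 2 libraries were 144 bp apart at IRGQ and 434 bp apart at ZNF428, where the peaks shared only 11 bp, so that the folds do not belong to the same point. Only 0.563% of the peaks of HET-1A library 2 had a higher fold than the IRGQ peak. Neither site had a peak in KYSE-30. With 2 regions, the PLAUR window was among the 0.516% of genes with at least that many peaks in KYSE-150 library 7.

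SERPINE2 (chromosome 2, 224839762 to 224904035, minus strand) encodes protease nexin-1, a serpin that inhibits urokinase, plasmin and thrombin. Neither its promoter nor its gene body had a peak in any library. The window held a distal element at −47.5 kb, called by KYSE-30 library 6 alone, with a fold of 6.06 and 15 tags (8.40 to 24.7; q = 1.17e-07). It lies close to the edge of the window and carries an AP-1 core. The other region was the promoter of MRPL44, a mitochondrial ribosomal protein gene, downstream of SERPINE2, with a fold of 8.29 and 35 tags in HET-1A library 2 and 6.83 and 16 tags in KYSE-30 library 6.

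The interstitial collagenase gene MMP1 and the stromelysin genes MMP3 and MMP10 lie side by side on chromosome 11 with overlapping windows. Peaks among them were called almost only in HET-1A library 2, the longest list. The cluster held 7 regions, all with a peak in HET-1A library 2, of which 1 also had a peak in KYSE-30 library 6. The others had none in any further library. Over all regions with a peak in HET-1A or KYSE-30, 48.3% were in HET-1A and not in KYSE-30 and 19.8% in both. With 7 regions, no difference from these shares can be read.
The MMP1 promoter (gene at 102660132 to 102668891, minus strand) had a peak with its summit at −30 bp from the start, with a fold of 3.77 and 34 tags (23.5 to 47.5; q = 1.75e-08), in HET-1A library 2 only. The 200 bp at this summit hold an AP-1 core. The MMP10 promoter (gene at 102641233 to 102651359, minus strand) had a peak at −24 bp with a fold of 3.85 and 30 tags (q = 9.28e-08), again in HET-1A library 2 only, and without the core. Both summits lay at the start site itself, whereas the peaks counted in the PLAU and MMP14 promoters lay some kilobases away.
Between these genes, at −3.3 kb from MMP10 in an exon of the transcribed pseudogene WTAPP1, HET-1A library 2 had a stronger peak with a fold of 5.23 and 47 tags (q = 4.19e-17). A distal site at +47.2 kb, between MMP10 and the neutrophil collagenase gene MMP8, had a fold of 4.47 and 40 tags in the same library. The region called in both lines was the promoter of a WTAPP1 transcript, where the fold was 4.47 with 25 tags in HET-1A library 2 and 4.42 with 10 tags in KYSE-30 library 6 (q = 0.000721).
MMP3 (102706532 to 102714340, minus strand) had no promoter peak. Its distal peaks, in HET-1A library 2 only, lay at −5.9 kb with a fold of 3.70 and 25 tags, and at −26 kb in an intron of MMP12, the macrophage elastase gene, with a fold of 6.33 and 50 tags (q = 5.23e-22). The latter was the strongest distal member peak of that library, and both held an AP-1 core. MMP13 (102813724 to 102826461, minus strand), another collagenase gene, had no peak in its window in any library. The closest peak was 85.99 kb from its start in HET-1A library 2 and 136 kb in KYSE-30 library 6, where the medians over all protein-coding genes were 24.0 and 44.6 kb.

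**Figure D2:**
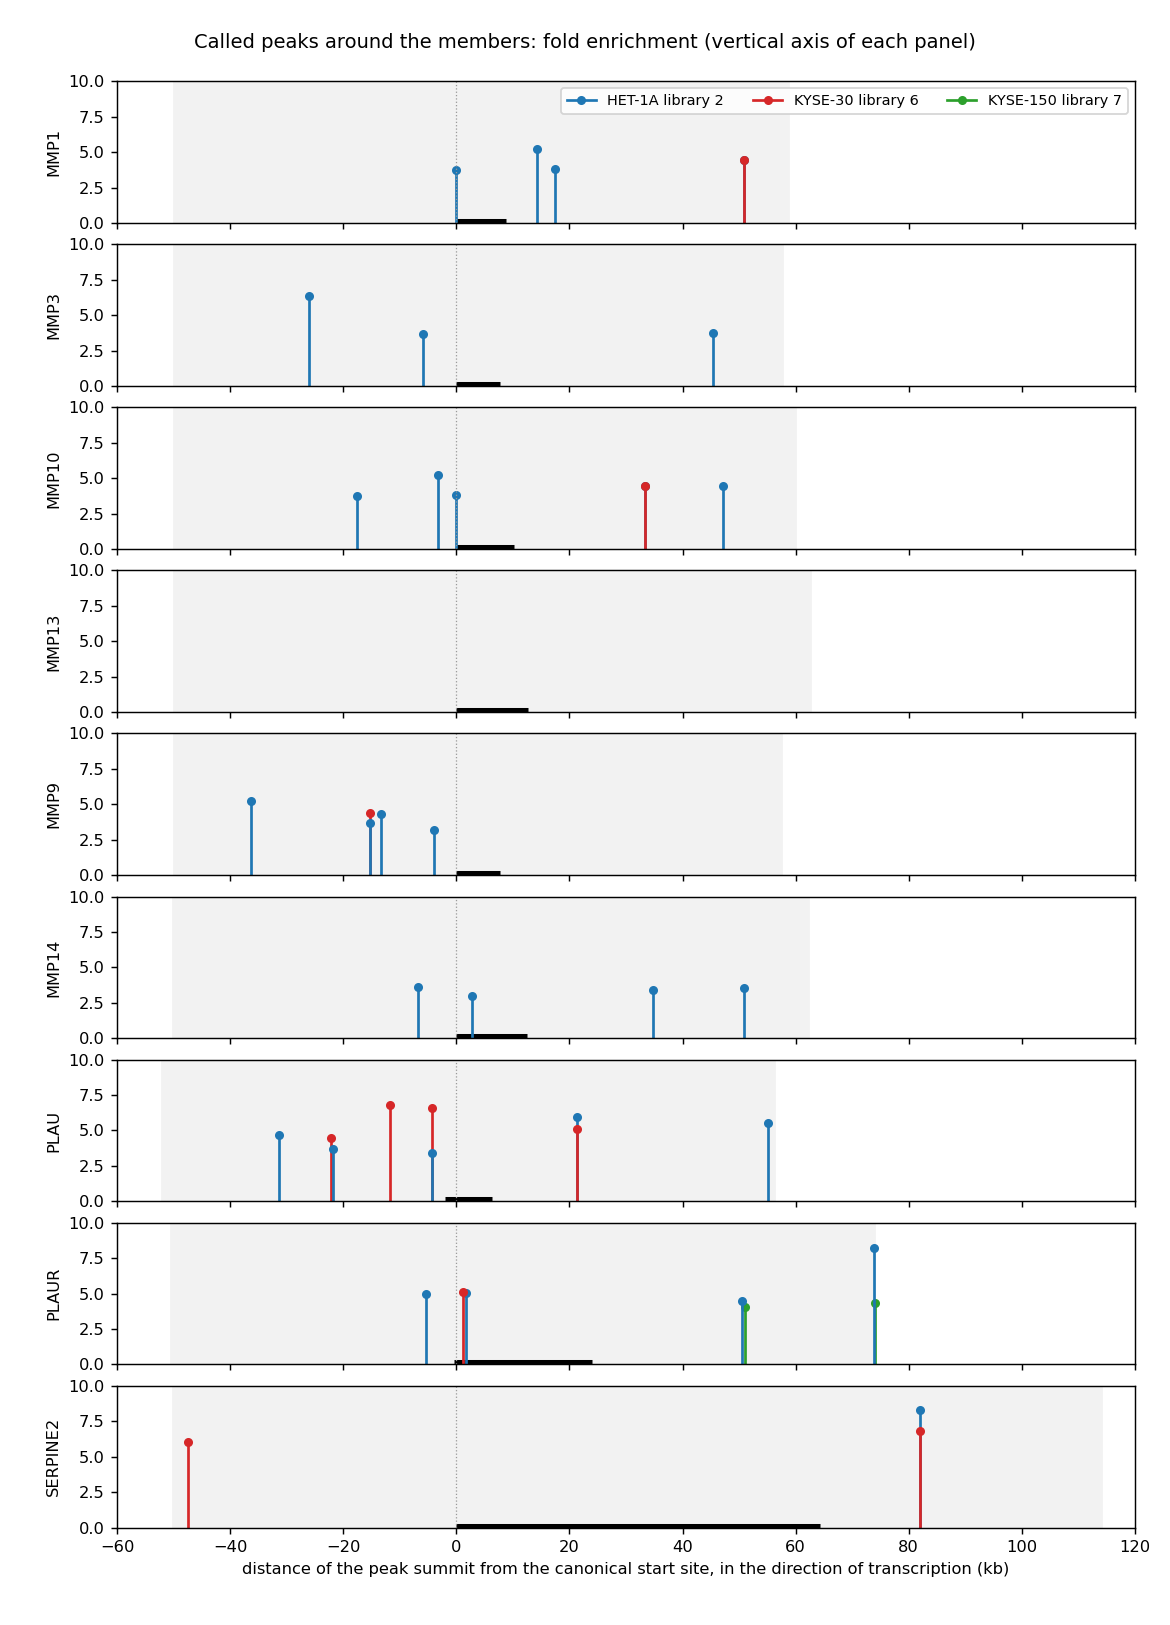
Called peaks in the window of each member gene: horizontal axis, distance of the summit from the canonical start site in kb along transcription; vertical axis, fold enrichment; blue, HET-1A library 2; red, KYSE-30 library 6; green, KYSE-150 library 7; black bar, gene body; grey, the window. The PLAU panel holds 4 red peaks, more than any other panel, the MMP3 and MMP14 panels hold blue ones only, and at +50.9 kb of MMP1 the red point (4.42) covers a blue one (4.47).

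MMP9 (chromosome 20, 44637547 to 44645200, plus strand), a gelatinase that degrades basement membrane collagen, had no promoter peak but a row of upstream ones. The site at −15.3 kb was called in both lines, with folds of 3.69 and 31 tags in HET-1A library 2 (q = 1.58e-07) and 4.42 and 12 tags in KYSE-30 library 6 (q = 0.000239). A higher fold was held by 68.9% and 81.7% of all peaks of these libraries. Both summit windows held the AP-1 core shown above. The sites at −13.2 kb (fold 4.29) and −3.9 kb (3.22) were called in HET-1A library 2 only and held none. The fourth region was the promoter of the zinc-finger gene ZNF335, at −36.4 kb, with a fold of 5.25 in HET-1A library 2. No other library had a peak in the window; the closest in KYSE-150 was 74.0 kb from the MMP9 start.

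MMP14 (chromosome 14, 23305769 to 23318250, plus strand), a membrane-anchored metalloproteinase that activates the MMP2 precursor, had peaks in HET-1A library 2 only. The peak counted as promoter lay in an MMP14 intron at +2.8 kb with a fold of 2.99 and 26 tags (17.0 to 38.1; q = 0.000147), and 89.1% of the peaks of that library had a higher fold. The others lay at the SLC7A7 promoter (3.63), near LRP10 (3.40) and in a UTR of REM2 (3.56). In KYSE-30 library 6 the closest peak was 92.8 kb from the MMP14 start, and in KYSE-150 library 7 it was also 92.8 kb away.

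Sorted by line, 18 of the 27 regions (66.7%) had a peak in HET-1A and not in KYSE-30, 7 (25.9%) in both, and 2 (7.41%) in KYSE-30 and not in HET-1A. Over all 23590 regions with a peak in either line, the shares were 48.3%, 19.8% and 31.9%. The 2 regions of KYSE-30 alone were PLAU −11.6 kb and SERPINE2 −47.5 kb. These counts rest on HET-1A library 2 and KYSE-30 library 6: without the former the 3 counts were 0, 0 and 9, and without the latter 25, 0 and 0. With HET-1A library 2 reduced to its 11671 peaks of smallest p-value, to match KYSE-30 library 6, the number in KYSE-30 alone was 4, and promoter peaks of MMP14 and PLAU were lost in HET-1A.

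The 7 regions called in both lines allowed the tags to be set side by side, after division by the genome background of each library. At the PLAU −4.3 kb element this ratio was 2.25 in KYSE-30 library 6 relative to HET-1A library 2 (95% interval 1.15 to 4.40), the highest of the 7. It was the only interval that did not include 1, but 1 is not the usual ratio of these 2 libraries. The interval included 1.59, the median over all regions called in both, so it does not set this element apart from them. The ratio was 1.75 (0.805 to 3.72) at PLAU −22.1 kb and 1.66 (0.833 to 3.25) at PLAUR. It was near or below 1 at the MRPL44 promoter of the SERPINE2 window (1.03, 0.531 to 1.91), PLAU +21.4 kb (0.925, 0.459 to 1.77), the WTAPP1 promoter (0.899, 0.385 to 1.94) and MMP9 −15.3 kb (0.870, 0.407 to 1.74). Over all 4543 regions with a peak in both libraries the median was 1.59 and the quartiles were 1.17 and 2.25, so that the PLAU −4.3 kb element stood at the upper quartile (23.4% of regions were higher) and the last 4 below the lower one. The intervals cover counting error in 1 library against 1, not the spread between replicates. At PLAU −22.1 kb and PLAUR the summits of the 2 libraries were 237 and 459 bp apart. These 2 ratios thus set neighbouring points side by side.

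**Figure D3:**
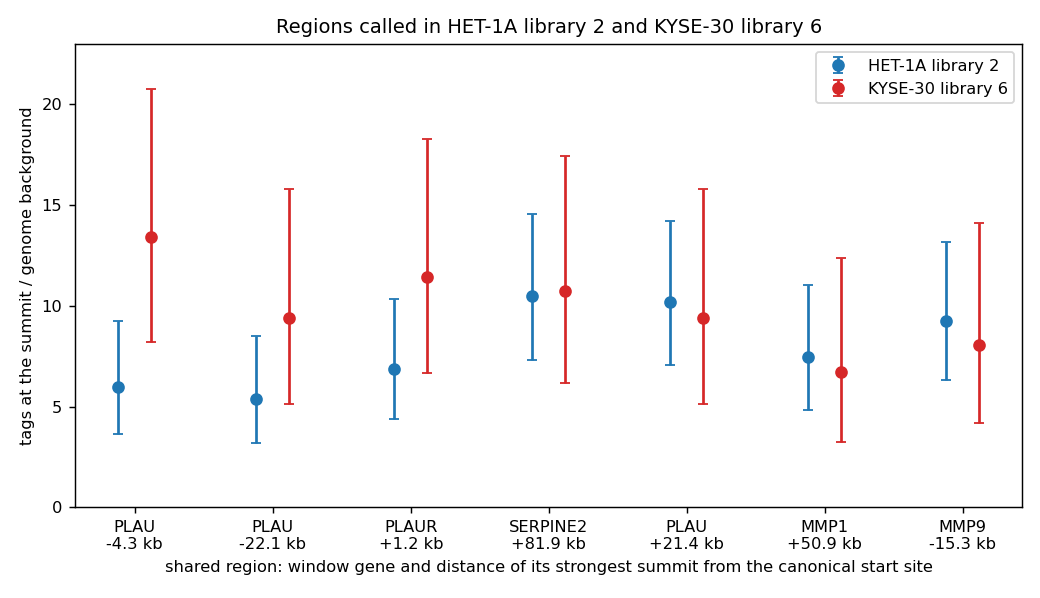
Tags at the summit divided by the genome background of the library (vertical axis, no unit) for the 7 member regions with a peak in both HET-1A library 2 (blue) and KYSE-30 library 6 (red); bars are exact Poisson 95% intervals of the tag number in a single library. The points are furthest apart at PLAU −4.3 kb (ratio 2.25) and close together in the last 4 regions.

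The local background differed between the loci in HET-1A library 2. Divided by the genome background, it was 2.30 to 2.66 at the MMP9 peaks, 1.76 to 2.40 at the MMP14 peaks and 1.44 to 2.48 in the MMP1, MMP3 and MMP10 cluster, beside a median of 1.45 over all peaks of the library. It was 1.23 to 1.55 at PLAU, 1.12 to 1.5 at PLAUR and 1.00 at the SERPINE2 window. In KYSE-30 library 6 it was 1.00 to 1.69 at all member peaks, with a library median of 1.44. A high local background lowers the fold at a given number of tags, as at MMP9 −15.3 kb, where 31 tags in HET-1A gave a lower fold than 12 in KYSE-30.

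The AP-1 core was searched as TGACTCA or TGAGTCA in the 200 bp at each summit. It was present at 10 of 25 member peaks in HET-1A library 2 and 4 of 9 in KYSE-30 library 6, beside 21.7% and 26.1% of all peaks of these libraries, and at 0 of 2 in KYSE-150 library 7 (4.02% of all peaks). Among distal peaks it was present at 5 of 12 in HET-1A (32.2% of all distal peaks) and 4 of 5 in KYSE-30 (42.7%), the latter being PLAU −11.6 kb, PLAU +21.4 kb, SERPINE2 −47.5 kb and MMP9 −15.3 kb. Among peaks within 3 kb of any start site it was present at 5 of 13 in HET-1A (12.4% of all such peaks), among them MMP1, and at 0 of 4 in KYSE-30 (12.6%). In KYSE-150 library 7, where both member peaks were of this kind, the shares over all peaks were 6.19% at distal and 2.83% at promoter peaks. The member counts moved with the length searched, from 24% of the HET-1A and 22.2% of the KYSE-30 member peaks in 100 bp to 44% and 66.7% in 500 bp, and with so few peaks no difference from the shares over all peaks can be read. The PEA3 core of ETS factors, AGGAAG or CTTCCT, was present at 9 of 25 member peaks in HET-1A library 2 and 3 of 9 in KYSE-30 library 6, beside 23.7% and 25.1% of all peaks.
In the RefSeq promoter table (GRCh38.p14, 300 bases per start site), 5 of the 9 members had entries. The AP-1 core was found in that of PLAUR, starting 186 bases before the start, and in none of MMP10, MMP14, PLAU and SERPINE2, where 4.95% of the 35116 promoters in the table held it.

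Promoter peaks of related protease genes were counted list by list. Of 17 other metalloproteinase genes, 4 had a promoter peak in HET-1A library 2 (MMP2, MMP11, MMP17 and MMP19, folds 3.35 to 4.44), 1 in KYSE-30 library 6 (MMP16, 5.59) and 2 in KYSE-30 library 4 (MMP11, 3.49, and MMP23B, 4.16). The 5 metalloproteinase inhibitor genes, TIMP1 to TIMP4 and RECK, had none in any library. Of 11 further genes of the plasminogen system, 2 had one in HET-1A library 2, the endocytic receptor gene LRP1 (3.92) and the plasmin inhibitor gene SERPINF2 (2.71). In KYSE-30 library 6 there were 3, the tissue plasminogen activator gene PLAT (5.22) and the genes of the annexin A2 complex that binds plasminogen, ANXA2 (7.58) and S100A10 (4.69). No gene of this list was thus shared between the lines. Of all 20136 protein-coding genes, 2969 had promoter peaks in exactly these 2 libraries, so with 11 genes no lack of sharing can be read. No gene of any list had a promoter peak in both libraries of a line. The shorter lists reached the promoters of only 0.0944% (HET-1A library 1), 3.88% (KYSE-30 library 4) and 0.363% (KYSE-150 library 8) of all genes.
Among 20 other pericellular proteases and their partners, 10 had a promoter peak in HET-1A library 2 and 7 in KYSE-30 library 6. The 6 in both were the sheddase genes ADAM9 (HET-1A fold 6.36, KYSE-30 fold 5.87) and ADAM17 (4.15 and 5.99), the cathepsin genes CTSB (5.12 and 7.53) and CTSL (6.83 and 5.28), the fibroblast activation protein gene FAP (5.99 and 7.35) and the proprotein convertase gene FURIN (4.65 and 4.35). These 6 matched PLAU and PLAUR in all 6 libraries, a pattern held by 2969 protein-coding genes.

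**Figure D4:**
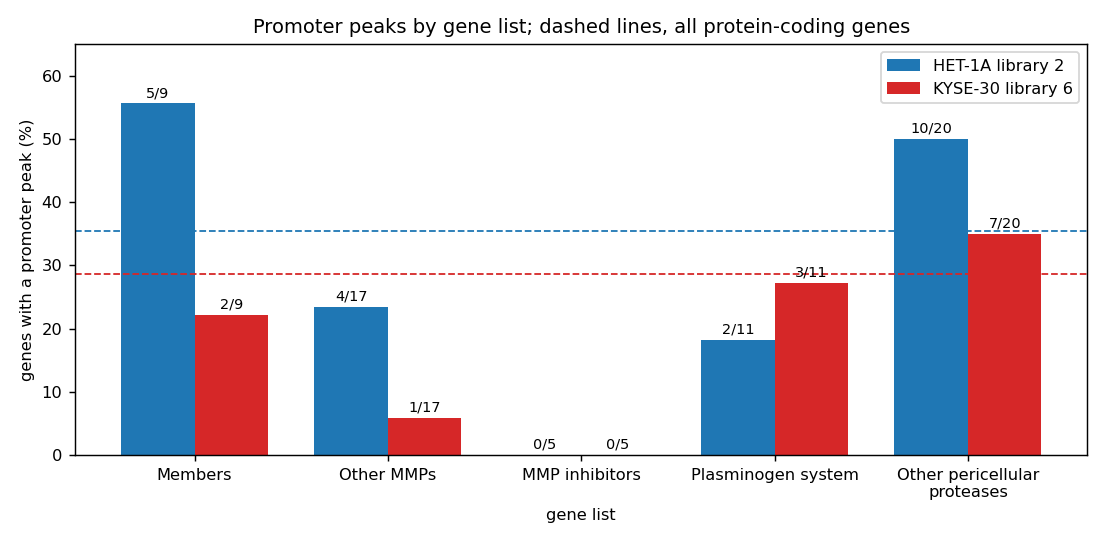
Share of genes with a promoter peak (vertical axis, percent, from 0) in HET-1A library 2 (blue) and KYSE-30 library 6 (red) for the members and the 4 lists of related genes, with counts above the bars; dashed lines are the shares of all protein-coding genes, 35.4% and 28.7%. The inhibitors stand at 0 of 5 in both libraries. The plasminogen system, listed without PLAU and PLAUR, has 3 of 11 in KYSE-30 and 2 of 11 in HET-1A, both bars below the dashed line of their library.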

How the data were processed

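Peak lists of 6 ATAC-seq libraries (2 per line) were analysed. Per the study's methods and the submitters' processing notes, the authors trimmed reads, marked duplicates (Picard 2.2.1), mapped them to hg19 (Bowtie2 2.3.3.1), removed blacklisted regions (bedtools 2.7.1), applied the Tn5 offset and, from fragments under 100 bp only, called peaks per library with MACS2 2.1.0.20160309 at a q-value of 0.05, extending reads to 200 bp, without pooling replicates. The deposited lists give a score, a fold enrichment (a ratio to local background), and −log10 p-values and q-values from the authors' peak caller, which describe a peak within its own library. Fragments under 100 bp favour nucleosome-free DNA, and a local background over up to 10 kb lowers the fold in broadly open DNA.

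Tags at the summit and local background were recovered from fold and p-value (99.6 to 100% of peaks, returned −log10 p within 0.001), and the smallest local background was taken as the genome background. Peaks were placed with GENCODE 44 on hg19, whose chromosome names and lengths matched the reference genome, and overlap was counted from 1 bp. Region merging, recovery and overlap counts were tested on simulated data. Scripts ran in Python 3.11.15 (scipy 1.17.1 for intervals, numpy 2.4.6 and pandas 2.3.3 for tables, matplotlib 3.10.9 for plots, pysam 0.24.0 for sequence). Exact Poisson or conditional binomial 95% intervals cover counting error only. No test was run.

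The members, lists and rules were chosen with earlier results of these data known. All 9 members were named, list genes with a promoter peak in both libraries of a line or with the pattern of PLAU and PLAUR were to be named, and the other list genes named were chosen after their values were seen, as were the PEA3 motif and the canonical-start alternative. Read counts, RT-PCR, blots and viability assays of the study were not analysed here.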

Additional observations from a re-analysis of the deposited data

How the results depend on the processing

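The number of members with a promoter peak was 3 in HET-1A library 2 when its list was reduced to the length of that of KYSE-30 library 6, and 3 there and 1 in KYSE-30 library 6 with a promoter of 1 kb. It was 1 in KYSE-30 library 6 when only the canonical start was used, since the PLAU −4.3 kb peak then fell outside, so that no promoter fold of PLAU was left under either promoter definition. With a window of 25 kb, KYSE-150 library 7 had 0 member regions, 1 region was in KYSE-30 alone and 10 in HET-1A alone. With a window of 100 kb, KYSE-30 library 4 had 1, KYSE-150 library 7 had 4, and 4 regions were in KYSE-30 alone. With peaks given to the nearest protein-coding start, HET-1A library 2 had 14 and KYSE-150 library 7 had 0, 10 regions were in HET-1A alone and 4 in both lines. With the shortened list 4 regions were in KYSE-30 alone, and the promoter peaks of MMP14 and PLAU in HET-1A library 2 were gone, as they were with 1 kb. Requiring a peak in both libraries of a line left 0 regions in each class. Leaving out each library in turn gave 0 to 9 regions in KYSE-30 alone, 0 to 25 in HET-1A alone and 0 to 7 in both, the changes coming from HET-1A library 2 and KYSE-30 library 6. For HET-1A library 2, KYSE-30 library 6 and KYSE-150 library 7 in turn, the share of member peaks with the AP-1 core was 40%, 44.4% and 0%, against 24%, 22.2% and 0% with 100 bp searched and 44%, 66.7% and 50% with 500 bp. It was 66.7% in KYSE-30 library 6 with peaks given to the nearest start. These shares stayed within the wide binomial intervals of so few peaks. A q-value under 0.01, or the summit in place of the overlap, changed no value. No paired analysis was possible because the labels share no replicate numbers between the lines and no test was run. The short lists did not have the lowest genome background (1.88 to 2.80 tags, beside 1.49 in KYSE-30 library 6). Why they are short was not tested, and an opening without a called peak there may have gone undetected.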
